A study of Mus musculus with 10 samples.

Results

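Fcgr1, Fcgr2b, Fcgr3, Fcgr4, Fcer1g, Tyrobp, Trem2, Trem1 and Syk encode the receptors, adaptors and kinase through which macrophages read IgG-coated targets and lipid or debris ligands. These 9 genes were chosen by symbol and not by their values, though with earlier results of these data known. All 9 were matched to a gene ID among the 54307 of the count table. Libraries of polyadenylated RNA came from macrophages grown from mouse bone marrow in L-929-conditioned medium, in which fibroblast-derived CSF1 drives differentiation, and harvested at day 7. The control group held 5 wild-type male mice and the other group 5 male mice carrying the human WDFY3 knock-in on both alleles (hWDFY3 KI/KI), all 6 to 8 weeks old. WDFY3 is a scaffold protein of selective autophagy, and the comparison asks what its overexpression changes in the macrophage transcriptome. The locus and promoter of the knock-in and the mouse strain were not given in the sources used here.

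Activating Fc gamma receptors bind IgG with their extracellular domains and signal through the Fc receptor gamma chain, encoded by Fcer1g. Trem1 and Trem2 signal in the same way through DAP12, encoded by Tyrobp. Both adaptors carry an immunoreceptor tyrosine-based activation motif (ITAM), which Src-family kinases phosphorylate and which then recruits the kinase Syk. Fcgr2b is the inhibitory receptor of the family and carries an inhibitory motif (ITIM) that recruits phosphatases. In macrophages Fc receptors drive the uptake of opsonised particles, and Trem2 is known for lipid sensing and for survival and fusion of myeloid cells.

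None of the members passed the test between genotypes. Of the 8 members expressed strongly enough to be tested, 0 passed edgeR's quasi-likelihood test at the adjusted threshold of 0.05, 0 had an unadjusted p under 0.05, and 4 fitted differences were positive and 4 negative. Over all 12411 tested genes, 0.0806% passed the adjusted threshold (0.0403% higher and 0.0403% lower), 6.21% had an unadjusted p under 0.05, and 48.3% were positive. DESeq2 also called 0 members, with 1 (Syk) at an unadjusted p under 0.05. Over all 12411 tested genes DESeq2 called 49 and gave 793 an unadjusted p under 0.05. The median log2 fold change was -0.0089 for the 8 members and -0.0046 for all tested genes. In RNA from whole cultures, fewer cells of a type and less RNA per cell cannot be told apart.

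**Figure D1:**
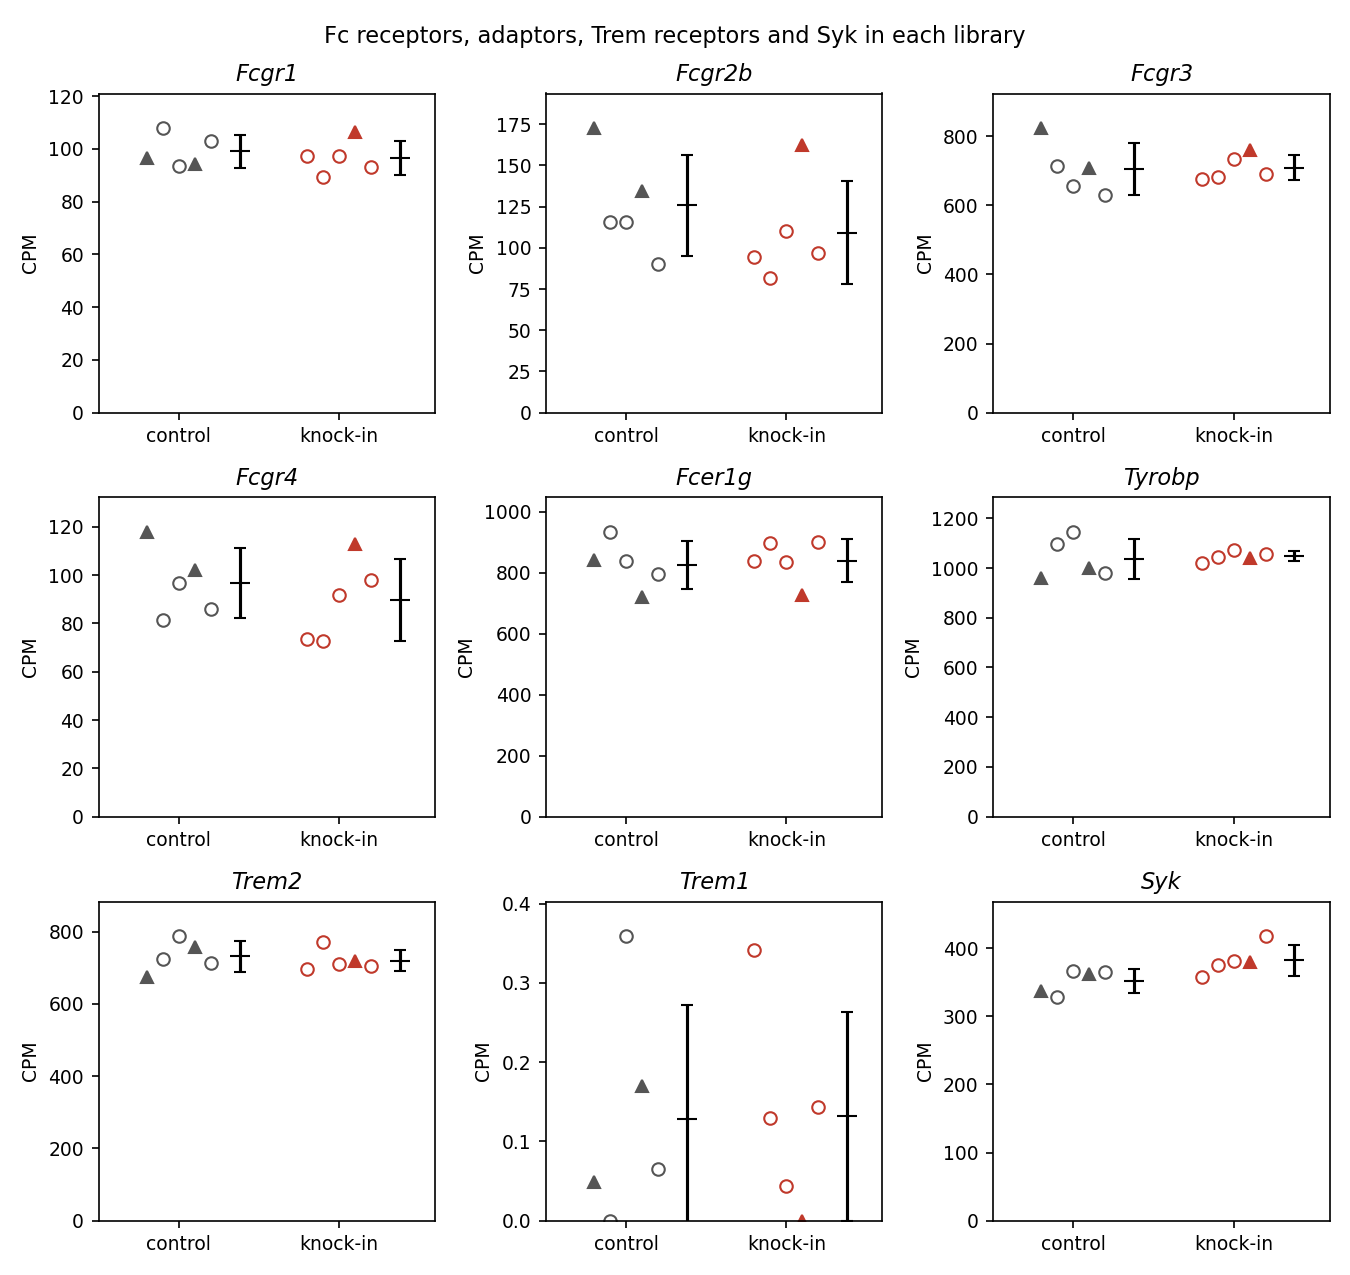
Level of each gene in CPM by genotype, 1 point per library, with the mean and SD over 5 libraries at the right of each group (for Trem1 the bar is shortened at 0). Triangles mark control 1, control 4 and knock-in 4, where summed stromal markers were highest and Fcgr2b was at 134 to 173 CPM against 81.9 to 116 in the other 7.

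**Figure D2:**
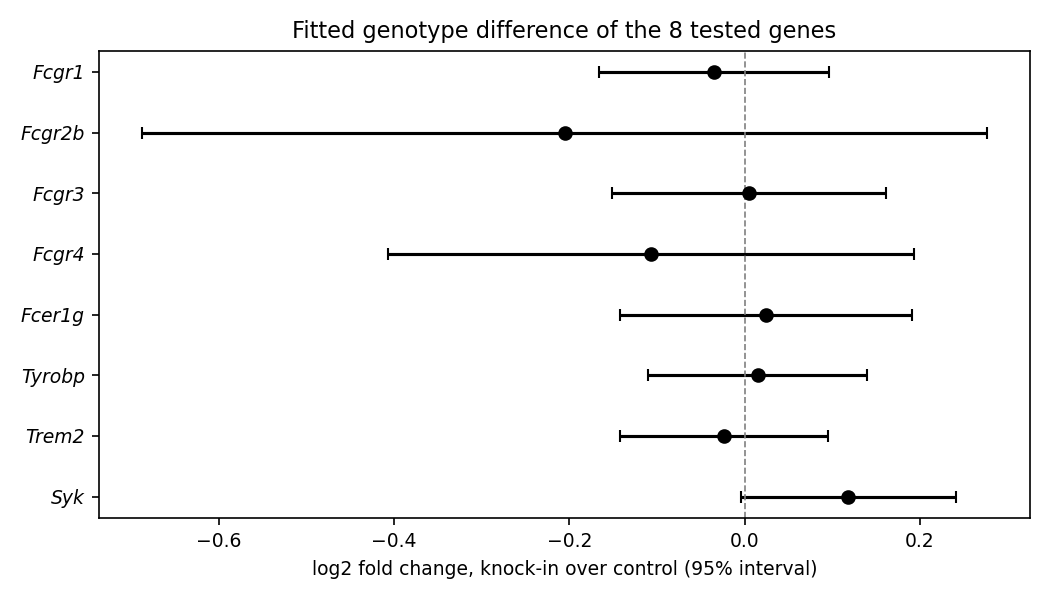
Fitted log2 fold change of knock-in over control (points) with its 95% interval (bars) for the 8 tested genes. All 8 intervals include 0, and that of Fcgr2b is the widest, from -0.69 to 0.28.

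The libraries held 14.6 to 36.4 M estimated counts, and CPM are counts scaled to a common library size. All 10 macrophage markers listed for the check of cell identity were tested, and 0 passed the adjusted threshold. They summed to 24400 to 35400 CPM in the controls and 30500 to 37500 in the knock-in libraries. Most of this sum was Lyz2, at 18250 to 28680 CPM in the controls and 24630 to 31390 in the knock-in libraries. The sum therefore mostly describes this gene. Adgre1, another of the 10 markers, was lower in every knock-in library, at 808 to 847 CPM, than in any control, at 860 to 1042. Its log2 fold change was -0.21 ± 0.059 (edgeR unadjusted p = 0.00355, adjusted p = 0.548). For the rest of the 10 markers the groups overlapped, and of all tested genes 1.32% did not overlap between genotypes. Markers of other cells summed to far less, at 2.16 to 6.45 CPM for mast cells and basophils, 1.58 to 5.36 for B cells and 23.5 to 50.7 for T and NK cells, the last mostly Cd4. Dendritic cell markers, mostly Bst2, summed to 68.1 to 101 CPM and erythroid and megakaryocyte markers to 3.10 to 10.5. Stromal markers varied most, at 549 CPM in control 1, 731 in control 4 and 423 in knock-in 4 against 43.3 to 251 in the other 7 libraries. Most of each stromal sum was Fn1, at 397, 577 and 333 CPM in these 3 against 40.8 to 247. Pdgfra, the least abundant tested stromal marker, was at 5.00, 3.46 and 2.00 CPM against 0.048 to 0.56. Summed neutrophil markers were also highest in these 3, at 373.5, 352 and 299 CPM against 154 to 233. Of the tested neutrophil markers Mmp8 was the most abundant, at 254, 211 and 201 CPM in these 3 against 48.3 to 114. Csf3r did not follow this, at 77.0, 88.8 and 75.9 CPM against 71.5 to 116. Lcn2, the least abundant tested, was at 1.91, 2.78 and 0.56 CPM against 0.049 to 0.85, so knock-in 4 lay within the range of the others. Ly6g was at 0 in 8 of 10 libraries. Of the members, Fcgr2b and Fcgr4 were higher in each of these 3 libraries than in any of the other 7. How many of all tested genes did the same was not counted, so no background share stands beside these 2. For the remaining members the ranges overlapped. The fits without these 3 libraries are given for Fcgr1, Fcgr2b, Fcgr3, Fcgr4, Fcer1g, Tyrobp and Syk.

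Tyrobp and Fcer1g, the adaptors, carry the sequence on which the whole pathway converges. The stretches of coding sequence that spell their ITAMs are shown first, with the ITIM of Fcgr2b, because phosphorylation of these tyrosines is the step through which the receptors signal. Sequences are those of GENCODE M21 transcripts (GRCm38), and capitals mark the tyrosine codons (TAT or TAC) and the leucine codon that completes each repeat of the motif.
Tyrobp ITAM: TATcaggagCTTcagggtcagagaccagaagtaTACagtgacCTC
Fcer1g ITAM: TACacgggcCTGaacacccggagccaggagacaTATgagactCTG
Fcgr2b ITIM: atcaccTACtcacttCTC

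Both ITAMs span 15 codons and the junction of exons 4 and 5. The Tyrobp ITAM lies at chr7:30415670-30417382 on the plus strand, an interval that includes the intron between them, and starts at codon 92 of 114. That of Fcer1g lies at chr1:171229889-171230072 on the minus strand and starts at codon 65 of 86. A search for the ITAM, in the reading frame of the coding strand and with 6 to 8 codons between its repeats, found it in no other member and in 2.91% of 21782 coding genes. Of the 2 coding transcripts of Fcer1g, 1 holds it. The Fcgr2b ITIM is at chr1:170961071-170961088 on the minus strand, in exon 8, and all 4 coding transcripts of Fcgr2b hold it. The ITIM pattern is loose, with a match in 49.3% of coding genes, and it also matched in Fcgr1, Fcgr4, Fcer1g and Tyrobp, so a match alone does not mark an inhibitory receptor.

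Tyrobp (ENSMUSG00000030579, chromosome 7, 30413760 to 30417585, plus strand) was measured at 960.4, 1097, 1146, 1001 and 978 CPM in controls 1 to 5 and at 1021, 1045, 1074, 1040 and 1057 CPM in knock-in 1 to 5. The 5 knock-in values lay within the range of the controls, and all 5 were above the control median. The means were 1037 ± 80.8 and 1047 ± 19.6 CPM (SD, n = 5 each), a log2 fold change of 0.015 ± 0.058 (SE) with a 95% interval from -0.11 to 0.14 (edgeR adjusted p = 0.981). This interval corresponds to a change between -7.35% and 10.2%. The fold change was negative without control 1 (-0.0094) or control 5 (-0.0051), without control 1, control 4 and knock-in 4 together (-0.033), and when the stromal score entered as a covariate (-0.0044).

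Fcer1g (ENSMUSG00000058715, chromosome 1, 171229572 to 171234365, minus strand) was at 841, 934, 837, 721 and 795 CPM in the controls and at 839, 898, 835.5, 726 and 900.3 CPM in the knock-in libraries. The groups overlapped almost entirely, and the lowest value of each group came from control 4 and knock-in 4, which are among the libraries richest in stromal RNA. The part of stromal RNA in this was not tested, and control 1, the third of those libraries, was not low. The means were 826 ± 77.7 and 839.7 ± 70.8 CPM, with a log2 fold change of 0.024 ± 0.077 (95% interval -0.14 to 0.19, adjusted p = 0.974). The value turned negative without control 4 (-0.019), knock-in 2 (-0.0010) or knock-in 5 (-0.0022) and when the stromal score was a covariate (-0.019), and was 0.022 without the 3 libraries. The log2 ratio of Fcer1g to Tyrobp counts, which does not depend on library scaling, averaged -0.33 ± 0.13 in the controls and -0.32 ± 0.12 in the knock-in libraries, with -0.47 in control 4 and -0.52 in knock-in 4 as the lowest values of each group.

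Among the activating receptors, Fcgr3 (ENSMUSG00000059498, chromosome 1, 171051174 to 171064935, minus strand), a low-affinity receptor for IgG complexes, was at 824, 713.5, 654.5, 707.5 and 629.5 CPM in the controls and 676, 682, 733, 760.5 and 690.4 CPM in the knock-in libraries. All knock-in values fell inside the control range. The means were 706 ± 75.1 and 708.5 ± 36.6 CPM, and the log2 fold change was 0.0053 ± 0.072 (95% interval -0.15 to 0.16, adjusted p = 0.996). It was 0.063 without control 1, control 4 and knock-in 4, and 0.057 when the stromal score was a covariate. Its sign changed without control 3 (-0.021), control 5 (-0.033), knock-in 3 (-0.0081) or knock-in 4 (-0.024).

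Fcgr1 (ENSMUSG00000015947, chromosome 3, 96282909 to 96293969, minus strand) encodes the high-affinity receptor, which binds monomeric IgG. It was at 96.3, 108, 93.6, 94.2 and 103 CPM in the controls and 97.2, 89.2, 97.4, 106 and 93.0 CPM in the knock-in libraries. The groups overlapped, with 3 knock-in libraries above the control median. The log2 fold change was -0.035 ± 0.061 (95% interval -0.17 to 0.096, adjusted p = 0.937), between a fall of 10.9% and a rise of 6.89%. Without the 3 libraries richest in stromal RNA it was -0.11.

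Fcgr4 (ENSMUSG00000059089, chromosome 1, 171018920 to 171029761, plus strand), which binds IgG2a and IgG2b in mice, was more variable. Its values were 118, 81.3, 96.9, 102 and 85.9 CPM in the controls and 73.8, 72.8, 91.8, 113 and 98.0 CPM in the knock-in libraries. The highest levels of the series were in control 1, knock-in 4 and control 4, at 102 to 118 CPM, above the 72.8 to 98.0 CPM of the other 7 libraries. The log2 fold change was -0.11 ± 0.14 (95% interval -0.41 to 0.19, adjusted p = 0.911), -0.063 without those 3 libraries, and -0.027 with the stromal score as a covariate. It was -0.20 without knock-in 4 alone (adjusted p = 0.700).

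Fcgr2b (ENSMUSG00000026656, chromosome 1, 170958617 to 170976547, minus strand), the inhibitory receptor, varied most among the tested members. It was measured at 173, 116, 116, 134 and 90.5 CPM in the controls and at 94.3, 81.9, 110.4, 162 and 97.15 CPM in the knock-in libraries. Control 1, knock-in 4 and control 4 were again highest, and of the other 7 libraries none exceeded 116 CPM. Of the knock-in libraries 4 lay below the control median, and the groups overlapped, with 4 knock-in libraries above control 5, the lowest control. The means were 126 ± 30.6 and 109 ± 31.3 CPM, and the log2 fold change was -0.21 ± 0.21 (95% interval -0.69 to 0.28, adjusted p = 0.899), so that changes between a fall of 37.9% and a rise of 21.2% lie within the interval.

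A single library moved this value more than any other choice. Without knock-in 4 the log2 fold change of Fcgr2b was -0.39 (unadjusted p = 0.0430, adjusted p = 0.603, with adjusted p from 0.603 to 0.995 over the alternatives). It was -0.062 without control 1 alone, -0.16 without control 1, control 4 and knock-in 4 together (adjusted p = 0.864) and -0.056 with the stromal score as a covariate (adjusted p = 0.975). The SD of its log2 CPM over the 10 libraries was 0.36, which 84.1% of tested genes did not exceed. For Fcgr4 this percentile was 72.1, and for Tyrobp and Trem2 it was 10.1 and 6.86.

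The genes whose levels followed Fcgr2b most closely over the 10 libraries were Mgst1, a microsomal glutathione transferase, Ceacam19 and Anxa3, a member of the annexins. Their root-mean-square differences from Fcgr2b in centred log2 CPM were 0.094, 0.115 and 0.116, against a median of 0.373 over all tested genes. Mgst1 was at 154, 103, 102, 141 and 89.7 CPM in the controls and at 91.1, 82.75, 105, 137 and 88.45 CPM in the knock-in libraries. As with Fcgr2b, control 1, control 4 and knock-in 4 were its 3 highest libraries, and the same held for Ceacam19 and Anxa3. The part of stromal or neutrophil RNA in these levels was not tested. B-cell markers, which matter because B cells also carry Fcgr2b, summed to 3.38 CPM in control 1, 5.36 in control 4 and 4.25 in knock-in 4. In the remaining libraries they summed to 1.58 to 4.20 CPM, with control 3 (4.20) and control 5 (3.58) above control 1. Cd79b was the most abundant of them.

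**Figure D3:**
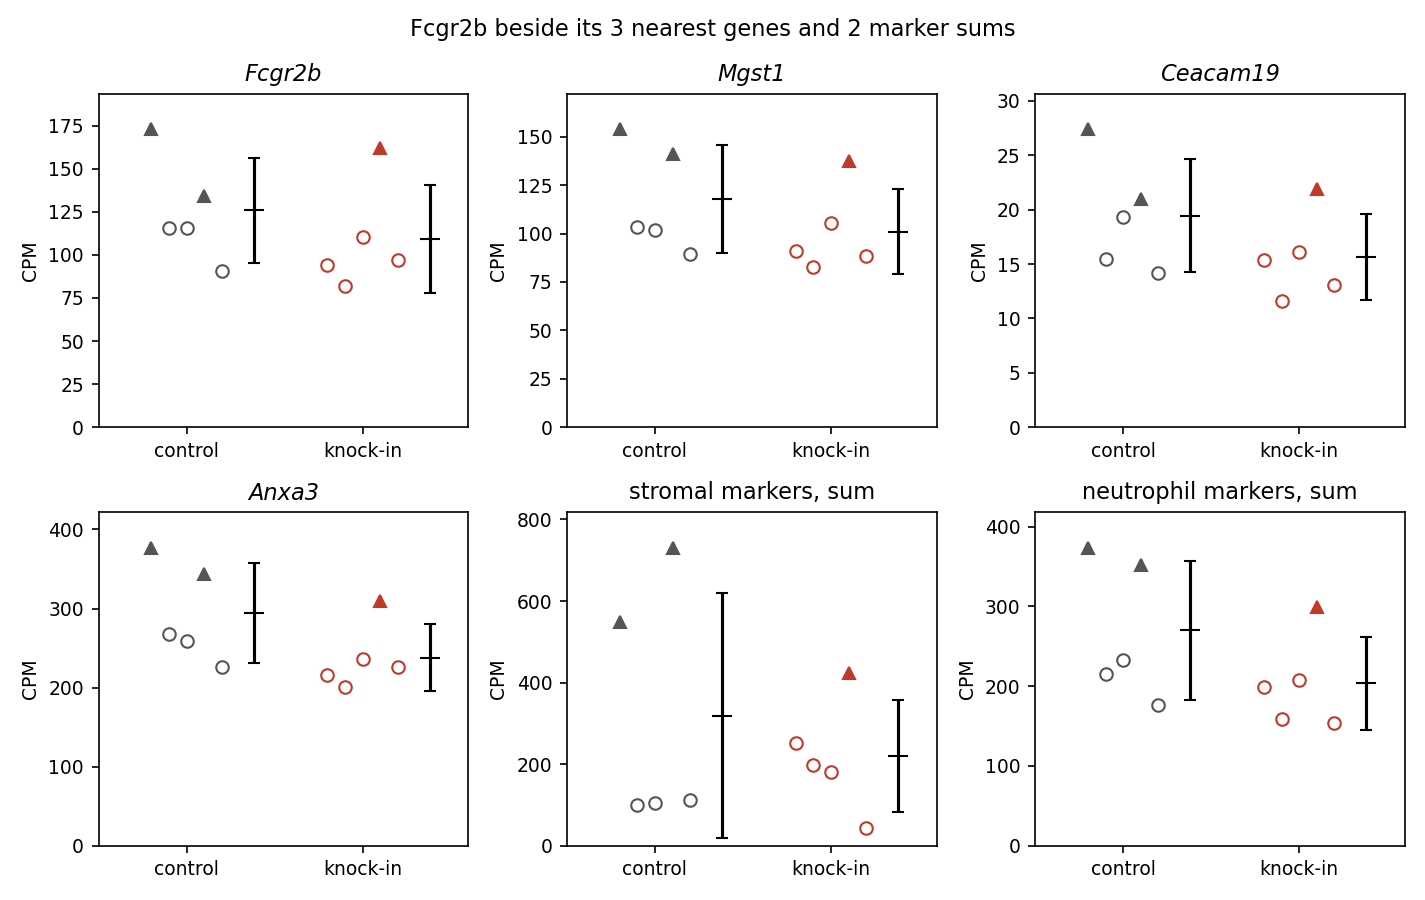
Levels in CPM of Fcgr2b, of the 3 genes nearest to it in pattern, and of the summed stromal and neutrophil markers, by genotype, 1 point per library with mean and SD (n = 5). Triangles mark control 1, control 4 and knock-in 4, which are the highest 3 libraries in all 6 panels.

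Fcgr2b and Fcgr3 are near neighbours on chromosome 1 with closely related extracellular domains, so some reads may fit both genes. The longest stretch that the 2 transcripts share without a mismatch is 129 bases of coding sequence. It is printed because reads that lie wholly within it fit both genes.
Fcgr2b and Fcgr3 shared stretch: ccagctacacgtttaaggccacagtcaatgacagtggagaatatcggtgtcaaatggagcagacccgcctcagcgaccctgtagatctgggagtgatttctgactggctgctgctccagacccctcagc

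In Fcgr2b this stretch runs over exons 3 and 4 (chr1:170967980-170968081 and chr1:170966674-170966700), and in Fcgr3 over its own exons 3 and 4 (chr1:171057691-171057792 and chr1:171054167-171054193), all on the minus strand of GRCm38. Of the 31-base words of the Fcgr3 transcript 17.7% occur in transcripts of other genes, and 233 words are shared with Fcgr2b. For Fcgr2b the share is 15.3%, which includes words found in many unrelated genes. Fcgr4 shares 1.39%, and Fcgr1, Fcer1g, Tyrobp and Trem2 share 0%. Reads were 100 bases long, so a shared word does not by itself make a read fit both genes. How many reads could not be assigned, and the effect on the levels of Fcgr2b and Fcgr3, was not measured. The log2 ratio of Fcgr2b to Fcgr3 was -2.25, -2.62, -2.50, -2.40 and -2.80 in the controls and -2.84, -3.06, -2.73, -2.23 and -2.83 in the knock-in libraries. The means were -2.51 ± 0.21 and -2.74 ± 0.31, and knock-in 3 and knock-in 4 lay within or above the range of the controls. Against the sum of the activating receptors Fcgr1, Fcgr3 and Fcgr4, the log2 ratio of Fcgr2b was -2.87 ± 0.22 and -3.08 ± 0.29.

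Trem2 (ENSMUSG00000023992, chromosome 17, 48346401 to 48354147, plus strand) was at 675, 723, 788.5, 757 and 713 CPM in the controls and at 696, 770.3, 709, 718 and 705.5 CPM in the knock-in libraries. The groups overlapped, and 1 knock-in library lay above the control median. The means were 731.5 ± 43.2 and 719.8 ± 29.3 CPM, with a log2 fold change of -0.023 ± 0.055 (95% interval -0.14 to 0.095, adjusted p = 0.958). The interval runs from a fall of 9.36% to a rise of 6.84%, the narrowest range of the 8 tested members. The value was 0.0051 without control 3 and negative in the other 21 alternatives.

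Trem1 (ENSMUSG00000042265, chromosome 17, 48232768 to 48246924, plus strand), a receptor of neutrophils and inflammatory monocytes that amplifies inflammatory signals, was barely detected. It had 1, 0, 6, 6 and 1 counts in the controls and 7, 2, 1, 0 and 3 in the knock-in libraries, too few to be tested. The 27 counts of all libraries have an exact 95% Poisson interval of 17.8 to 39.3, which covers counting error only, and Trem2 had 152578. Per kb of the longest coding transcript, Trem2 counts were 15500 times those of Trem1. A ratio per library was not formed because Trem1 was at 0 in 2 libraries. In the 3 libraries highest in summed neutrophil markers, Trem1 had 1 count (control 1), 6 (control 4) and 0 (knock-in 4), against 0 to 7 in the other 7.

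The promoters of these neighbours are shown because their transcripts differed so widely in the same cells. They are RefSeq sequences of GRCm38.p6, from 250 bases before to 50 after the start, at chr17:48346151-48346450 for Trem2 and chr17:48232489-48232788 for Trem1, both on the plus strand. Capitals mark GAGGAA or its reverse complement TTCCTC, a core bound by the myeloid factor PU.1, which was searched for on both strands and as the only motif.
Trem2 promoter: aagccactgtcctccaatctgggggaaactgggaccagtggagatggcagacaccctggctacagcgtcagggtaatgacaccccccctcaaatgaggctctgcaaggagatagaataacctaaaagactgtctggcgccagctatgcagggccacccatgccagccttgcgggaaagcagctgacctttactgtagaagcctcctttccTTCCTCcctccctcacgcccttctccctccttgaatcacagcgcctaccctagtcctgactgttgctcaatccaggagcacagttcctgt
Trem1 promoter: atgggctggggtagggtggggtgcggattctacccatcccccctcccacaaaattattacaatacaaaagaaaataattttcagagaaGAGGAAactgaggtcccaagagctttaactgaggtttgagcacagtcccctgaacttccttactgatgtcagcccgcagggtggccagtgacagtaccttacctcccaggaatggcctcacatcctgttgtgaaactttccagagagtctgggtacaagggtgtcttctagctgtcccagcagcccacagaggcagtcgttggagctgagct

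Each of these windows held 1 match. The table gives 10 windows for 8 members, of which 7 held a match (Trem2, Trem1, Fcgr1, Fcgr4, both overlapping windows of Fcgr3 and 1 of the 2 of Syk), and 28.3% of all 32851 promoter windows of this length did. A match describes letters and not a bound site.

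Syk (ENSMUSG00000021457, chromosome 13, 52583173 to 52648792, plus strand), the tyrosine kinase that binds phosphorylated ITAMs, had the smallest p of the members. It was at 337, 329, 366, 363 and 364.5 CPM in the controls and at 357, 374.5, 380.4, 379 and 418 CPM in the knock-in libraries. Of the knock-in libraries 4 lay above all controls and knock-in 1 lay among them. The means were 352 ± 17.5 and 382 ± 22.4 CPM, with a log2 fold change of 0.12 ± 0.057 (95% interval -0.0043 to 0.24). This difference of 8.55% did not pass (unadjusted p = 0.0574, adjusted p = 0.799), and Syk ranked 884 among the 12411 tested genes by p. DESeq2 gave an unadjusted p of 0.0333 (adjusted p = 0.714), and limma-trend on the authors' log2 values gave 0.0433. In edgeR the unadjusted p was also under 0.05 with upper-quartile factors (0.0459) and with a replicate block (0.0479). The same held in edgeR without control 3 (0.0477) or without knock-in 1 (0.0354). In the remaining alternatives it was above 0.05. The fold change was positive in all 22 alternatives, from 0.084 to 0.14, and the adjusted p ranged from 0.602 to 0.987. Leaving out the 3 libraries richest in stromal RNA gave 0.12.

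Levels of different genes were compared per kb of transcript. Per kb of the longest transcript annotated as coding, the order in the controls was Tyrobp at 1740 ± 135 CPM per kb, Fcer1g at 1210 ± 114, Trem2 at 672 ± 39.7, Fcgr3 at 524 ± 55.8, Fcgr4 at 77.1 ± 11.5, Syk at 65.6 ± 3.26, Fcgr1 at 38.2 ± 2.41, Fcgr2b at 35.5 ± 8.63 and Trem1 at 0.043 ± 0.048. Among these 9 genes the adaptors had the highest levels per length. Each gene lay above the next in all 10 libraries except in 2 places. Fcgr4 was above Syk in 8 libraries and Fcgr1 above Fcgr2b in 7, with overlapping ranges. The choice of transcript mattered for Trem2, whose longest annotated transcript is a retained-intron form of 4784 bases. With that length it was at 153 ± 9.03 CPM per kb and below Fcgr3. With the median length of each gene's transcripts Fcgr2b was at 86.1, Syk at 118 and Fcgr1 at 62.1 CPM per kb, which changes the order of the lower members.

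Genes around the pathway were described through 8 lists of its parts. In these lists edgeR and DESeq2 each called 0 genes at the adjusted threshold. Of all tested genes 0.0806% passed in edgeR, and 49 of 12411 passed in DESeq2. The groups did not overlap for 0 list genes, against 1.32% of all tested genes. At an unadjusted p under 0.05 the list counts stand against 6.21% of all tested genes.

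Of 14 other Fc receptors and immunoglobulin binders 5 were tested, 1 positive and 4 negative (median log2 fold change -0.15), with 1 at an unadjusted p under 0.05. That gene was Fcrl1, an Fc receptor-like protein known from B cells, at 11.7 ± 1.11 CPM in the controls and 8.74 ± 1.62 in the knock-in libraries (log2 -0.42 ± 0.13, adjusted p = 0.611). The alpha chain of the high-affinity IgE receptor, Fcer1a, which pairs with Fcer1g in mast cells, was at 0 to 0.48 CPM and not tested.

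A further list held 29 genes around Tyrobp and Fcer1g, mostly immune receptors, not all of which pair with these adaptors. Of these 24 were tested, 9 positive and 15 negative (median -0.082), with 1 at an unadjusted p under 0.05. Siglech, which signals through Tyrobp, was at 0.299 ± 0.176 and 0.734 ± 0.397 CPM (log2 1.21 ± 0.45, adjusted p = 0.706), and Treml1, a Trem-like receptor of platelets, at 1.08 ± 0.290 and 0.762 ± 0.127 CPM (log2 -0.51 ± 0.25, adjusted p = 0.799). Without control 1, control 4 and knock-in 4, 2 genes of this list passed, Lilra5 and Lilra6, which were named after their values were seen. In that fit 38 of 12485 tested genes, or 0.304%, passed. Over all 10 libraries Lilra6, an activating leukocyte immunoglobulin-like receptor, was at 11.2 ± 13.8 and 30.997 ± 10.1 CPM (log2 1.43 ± 0.82, adjusted p = 0.825) and Lilra5 at 1.88 ± 1.84 and 3.59 ± 1.94 CPM (adjusted p = 0.842). Sequence that Lilra5 or Lilra6 may share with related receptor genes was not searched for, so the certainty of their levels is not known.

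Of 12 Src-family kinases and regulators 10 were tested, 6 positive and 4 negative (median 0.013), with 1 at an unadjusted p under 0.05. Ptprj, a receptor phosphatase that activates Src-family kinases in macrophages, was at 247 ± 13.9 and 271 ± 4.45 CPM (log2 0.13 ± 0.051, adjusted p = 0.722), and Fgr, a Src-family kinase of myeloid cells, at 19.4 ± 4.09 and 16.2 ± 6.45 CPM (adjusted p = 0.891).

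Of 35 signalling proteins downstream of Syk 34 were tested, 22 positive and 12 negative (median 0.018), with 1 at an unadjusted p under 0.05. Lat, an adaptor best known from T cells, was at 21.7 ± 4.03 and 28.2 ± 5.99 CPM (log2 0.37 ± 0.16, adjusted p = 0.787), and Pik3r1, the regulatory subunit of PI3-kinase, at 55.4 ± 6.77 and 62.05 ± 4.39 CPM (adjusted p = 0.799).

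Of 31 inhibitory receptors and phosphatases 29 were tested, 16 positive and 13 negative (median 0.019), with 3 at an unadjusted p under 0.05. Cbl, the ubiquitin ligase that limits Syk signalling, was at 168 ± 7.28 and 193 ± 20.1 CPM (log2 0.20 ± 0.071, adjusted p = 0.700), and Clec4a2, an ITIM-bearing lectin receptor, at 109 ± 4.85 and 91.7 ± 15.4 CPM (log2 -0.24 ± 0.10, adjusted p = 0.768).

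Of 16 ligands, sheddases and partners of Trem2 13 were tested, 3 positive and 10 negative (median -0.067), with 0 at an unadjusted p under 0.05. Ms4a4a, whose human counterpart is linked to soluble TREM2, was at 7.66 ± 0.907 and 8.88 ± 1.09 CPM (adjusted p = 0.810), and its relative Ms4a6d at 149 ± 21.4 and 125.5 ± 22.5 CPM (adjusted p = 0.810). Apoe, a lipid carrier and Trem2 ligand that was named after its values were seen, was at 4937 ± 1658 and 2891 ± 1366 CPM (log2 -0.77 ± 0.40, adjusted p = 0.811).

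A list of genes of lipid-associated or disease-associated phagocytes, states linked to Trem2, held 26, not all of which need depend on Trem2. Of these 25 were tested, 14 positive and 11 negative (median 0.043), with 2 at an unadjusted p under 0.05. These were the lysosomal proteases Ctsb, at 14366 ± 724 and 16024 ± 1557 CPM (log2 0.16 ± 0.071, adjusted p = 0.788), and Ctsl, at 3108 ± 516 and 2209 ± 729 CPM (log2 -0.49 ± 0.22, adjusted p = 0.795), with differences of opposite sign.

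Of 14 multinucleation and osteoclast genes linked to Tyrobp 11 were tested, 6 positive and 5 negative (median 0.032), with 0 at an unadjusted p under 0.05. Itgb3, the integrin beta chain of osteoclasts, was at 36.5 ± 8.91 and 48.6 ± 17.2 CPM (adjusted p = 0.837), and Nfatc1, the transcription factor of osteoclast formation, at 40.9 ± 4.88 and 44.4 ± 2.26 CPM (adjusted p = 0.844).

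**Figure D4:**
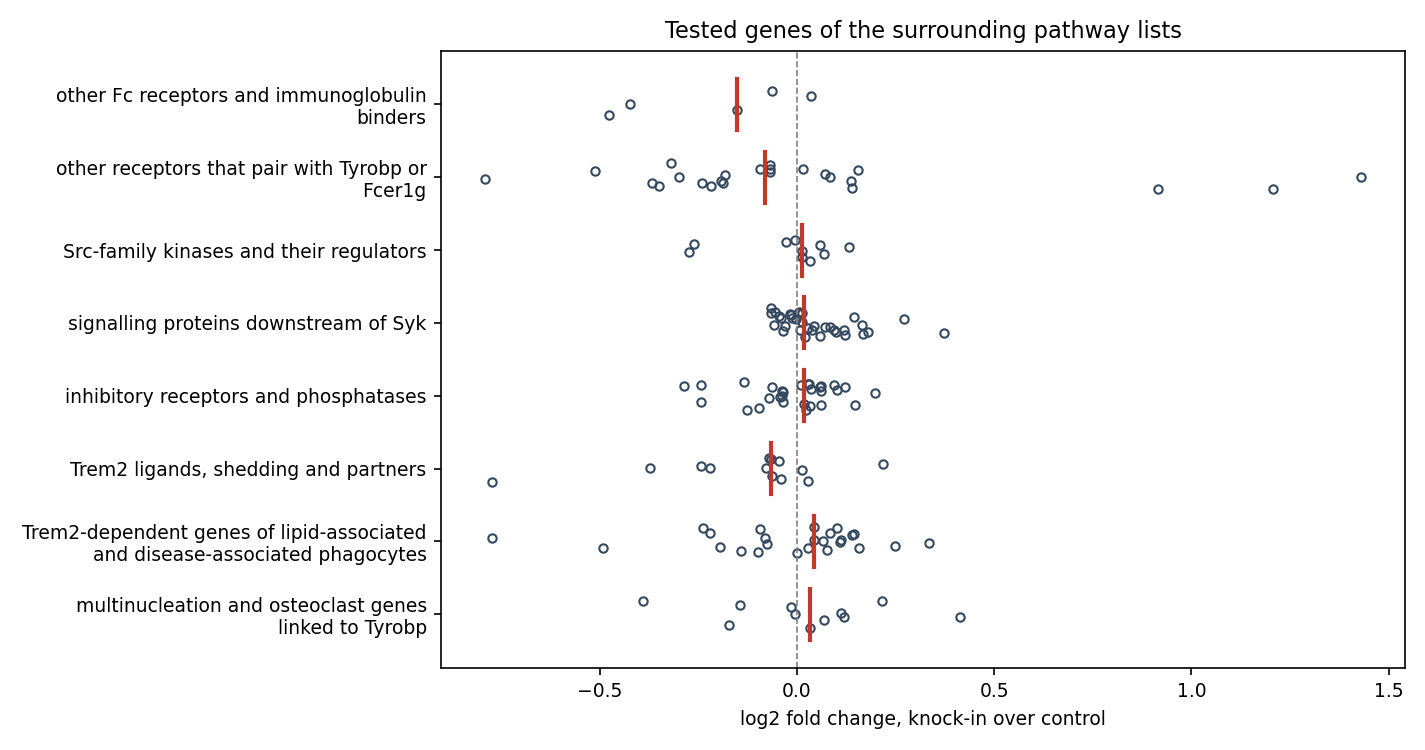
Fitted log2 fold change of knock-in over control for each tested gene of the 8 pathway lists (open circles, spread vertically for visibility), with the median of each list as a red bar. The medians lie between -0.15 and 0.043, and 0 of the genes shown passed an adjusted p under 0.05.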

How the data were processed

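The authors deposited estimated counts per Ensembl gene and, in another table, log2 values after a regularized-log transformation. Tools named in the submitters' processing notes are Salmon 1.6.0, DESeq2 1.34.0 and MultiQC, and builds are GRCm39 and mm10, without roles. The libraries were strand-specific per the labels' protocols, but the strand setting of the quantification and the annotation release were not given in the sources used here. Counts were rounded to whole numbers and tested with edgeR 4.0.16 (R 4.3.3; TMM, filterByExpr with minimum count 10 and total 15, robust quasi-likelihood F-test), and Benjamini-Hochberg adjustment ran over 12411 genes at a threshold of 0.05. The SE is the log2 fold change divided by the square root of F, and CPM use TMM-scaled libraries. Members, lists and rules were chosen with earlier results of these data known. The rule for named genes took the members, and the called genes of each list or else the 2 with the smallest p (1 in lists under 10 tested genes). It also took the highest and lowest tested gene of each marker list, not all of which are named in the text. It further took the 3 genes nearest to any member whose SD of log2 CPM (prior count 2) exceeded the 75th percentile, which only Fcgr2b did. Adgre1, Csf3r, Ly6g, Fcer1a, Apoe, Lilra5 and Lilra6 fall outside this rule and were chosen after their values were seen. Coordinates are GENCODE M21 (GRCm38), by gene ID. Alternatives tried were upper-quartile and RLE factors, DESeq2 1.42.0, limma-voom and limma-trend (limma 3.58.1), 2 filters, non-robust dispersion, a replicate block and each library left out. Added after seeing data were the fit without control 1, control 4 and knock-in 4, the stromal marker score (mean log2 CPM of 12 markers) as a covariate, unrounded counts and coding-transcript length. The test was first run on simulated counts, drawn independently for each gene, and the outcome is not given here. Within groups, pairs of libraries had chi-square values per gene from 8.74 to 54.5, and none appeared to be a copy.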

Additional observations from a re-analysis of the deposited data

How the results depend on the processing

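Over 22 alternatives 0 members passed in each, and Fcgr1, Fcgr2b, Fcgr4 and Syk kept their sign. The sign changed for Tyrobp without control 1, control 4 and knock-in 4 together (-0.0331) and with the stromal score as a covariate (-0.0044), where Fcer1g was -0.0194. With 1 library left out, Tyrobp ran from -0.0094 to 0.0535, Fcgr3 from -0.0331 to 0.0691, Fcer1g from -0.0191 to 0.0725 and Trem2 from -0.0488 to 0.0051. The count over all genes, 10, was 49 in DESeq2, 38 without the 3 libraries and 6 to 23 with 1 library left out (23 without knock-in 4, and 6 without control 2 or any of the first 3 knock-in libraries), and 2 list genes passed without the 3 libraries against 0. The cause was not tested. The replicate block gave 12 genes, 0 members and -0.21 for Fcgr2b. The labels do not say that numbers pair mice, same-numbered libraries correlated at -0.20 to 0.51 in their deviations, and 2 of 5 controls correlated best with their own number. Depth limits Trem1, at 0 to 7 counts a library. Changing the scaling moved the median of all genes by at most 0.0058.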
